A study of Mus musculus with 12 samples.

Results

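Ribosome biogenesis factors, the proteins that transcribe, process and assemble ribosomal RNA but are not part of the finished ribosome, were followed across sorted germ cells and somatic cells of the mouse fetal gonad. The set holds 51 of the 12845 genes in the deposited expression tables. Members were chosen by symbol: names made of Utp, Nop, Rrp, Nol, Noc or Imp and a number, leaving out Nol3, together with Ncl, Npm1, Fbl, Dkc1, Nhp2, Gar1, Nolc1, Bop1, Pes1, Wdr12, Rrn3, Ubtf, Nip7 and Gnl3. By role, 2 act in transcription by RNA polymerase I, 22 in the small subunit processome, 8 in small nucleolar ribonucleoproteins (snoRNPs), 15 in large subunit assembly, and 4 were placed with other nucleolar proteins. Gonads were collected at E13.5 from litters of females mated to Oct4GFP males, and the strain is labelled Oct4GFPxICR. The reporter marks primordial germ cells (PGCs, which later form eggs or sperm). Flow cytometry gave GFP-positive PGCs and GFP-negative soma from each sex, so PGCs and soma of males and of females form 4 groups of 3 RNA sequencing libraries. All 4 groups share the reporter cross and the day of collection, and the labels name no treatment or mutation. The labels do not say whether replicates came from separate litters or pools, so the p-values measure only the spread between these libraries. Soma is a mixture of cell types, and in such bulk samples fewer cells of a type and less RNA per cell cannot be told apart.

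A ribosome begins in the nucleolus, where RNA polymerase I copies the ribosomal DNA repeats into a long precursor RNA. The small subunit processome, built around the U3 snoRNA, folds and cuts the part that becomes 18S RNA, while another chain of factors matures the 5.8S and 28S RNAs of the large subunit. Box C/D snoRNPs methylate the precursor and box H/ACA snoRNPs convert uridines to pseudouridine. At this stage of gonad development male germ cells are about to leave the cell cycle and female germ cells are entering meiosis.

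Promoter sequence is shown for the 4 members in which an E-box, the sequence CACGTG bound by Myc, Max and related factors, lies within the 90 bases before a start site outside the annotated gene. Their sex patterns differed in PGCs: Nop2 was higher in males, Utp18 was higher in females, and Rrn3 and Nol11 had no call. RefSeq promoters on GRCm38.p6 were matched to 43 of the 51 members. Each line below gives the 90 bases before the start site, read 5′ to 3′ on the gene's strand, with the E-box in capitals. The E-box began 43 bases before the start of Nol11, 60 before Nop2, 48 before Rrn3 and 20 before Utp18.
Nol11, chr11:107189382-107189471, minus strand: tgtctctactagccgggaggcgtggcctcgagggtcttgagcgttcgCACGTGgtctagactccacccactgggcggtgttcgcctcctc
Nop2, chr6:125131793-125131882, plus strand: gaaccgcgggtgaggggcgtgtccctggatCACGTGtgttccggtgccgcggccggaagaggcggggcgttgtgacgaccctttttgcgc
Rrn3, chr16:13780609-13780698, plus strand: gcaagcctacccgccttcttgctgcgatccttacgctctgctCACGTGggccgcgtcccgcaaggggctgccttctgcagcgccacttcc
Utp18, chr11:93885767-93885856, minus strand: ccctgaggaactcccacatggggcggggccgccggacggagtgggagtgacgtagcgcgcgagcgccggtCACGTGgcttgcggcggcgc

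Over the 300-base promoter windows, CACGTG on either strand was found in 9 of the 43 members (20.9%), against 11.9% of the 10224 measured genes with a promoter and 7.15% of all 32851 promoters. Those members were Imp4, Nol11, Nop2, Pes1, Rrn3, Rrp7a, Utp14b, Utp18 and Utp20. The ETS motif CCGGAAG was found in 15 members (34.9%), against 19.7% of measured genes and 8.86% of promoters. The NRF1 motif was in 0 members, against 3.296% of measured genes and 1.27% of promoters, and with its ends left free in 5 (11.6%, against 11.6% and 4.60%). CCAAT was in 16 (37.2%, against 43.3% and 37.4%) and TATAAA in 5 (11.6%, against 8.26% and 13.6%). The YY1 core ATGGCGG was in 4 (9.30%, against 9.37% and 4.05%), and a longer form that contains it was in 0 (against 1.78% and 0.633%). Both strands were searched for each motif, and a match describes letters in a window, not a bound site.

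Values are given on 3 scales. Reads recovered from the deposited cell number table were scaled to each library's total in that table (CPM). This gives a gene's share of the reads over the 12845 genes, without correction for transcript length. The depth ran from 6454322 reads (female PGC replicate 2) to 24791414 (male soma replicate 2). Log2 differences "by read depth" come from the authors' read depth normalized table, in which members moved by 0.810 log2 units for each log2 unit of CPM, so that these differences are smaller than the CPM ratios. Log2 differences "per cell" come from the authors' table normalized to cell number with spike-in RNA. Calls were made with limma at an adjusted p of 0.05 over all genes, and errors of differences are SEs. Germ cell markers summed to between 3520 and 4979 CPM in PGC libraries, and all 8 were higher in PGCs by read depth (41.4% of all genes). One of them, Pou5f1, encodes Oct4, whose reporter was used for sorting, so its call is no separate check. In male soma the 8 markers summed to 74.8 to 92.3 CPM and in female soma to 77.8 to 235. Kit made up most of the male soma sums, at 57.6, 76.4 and 79.3 CPM. In female soma Kit stood at 59.7, 76.6 and 59.0. Dazl stood at 40.5, 98.2 and 5.21 CPM in female soma and 4.15, 1.73 and 2.72 in male soma. Ddx4 stood at 24.0, 35.6 and 2.16 CPM in female soma and 2.62, 2.58 and 4.08 in male soma. Sertoli markers reached 51.4 to 119 CPM in male PGC libraries, replicate 1 being the highest, against 650.4 to 756 in male soma. Pregranulosa markers summed to 15.7 to 51.1 CPM in PGC libraries and 136 to 515 in soma. Stromal, fetal Leydig, endothelial, macrophage and erythroid lists each summed to at most 35.9 CPM in any PGC library, and the Sertoli marker Cst9 and the globin Hbb-bh1 were at 0 reads in all female PGC libraries. Male soma replicate 3 stood apart per cell, with a median log2 level of 5.25 over all genes against 4.33 and 4.29 in the other male soma libraries.

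As a set, ribosome biogenesis factors took a larger share of the reads in PGCs than in soma, and the largest share in male PGCs. Their summed level was 11581, 12201 and 11334 CPM in the male PGC libraries and 4468, 4308 and 4307 in male soma. Female PGC libraries held 7472, 7410.2 and 8242 CPM, and female soma 4518, 5162 and 5089.9. The ranges of the 4 groups did not overlap, though the lowest female soma library lay only just above the highest male soma library. The mean was 2.68 times higher in male PGCs than in male soma and 1.57 times higher in female PGCs than in female soma, and male PGCs stood 1.52 times above female PGCs. Nucleolin and nucleophosmin, the most abundant members, made up between 32.8% and 41.0% of the members' reads in every library.

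**Figure D1:**
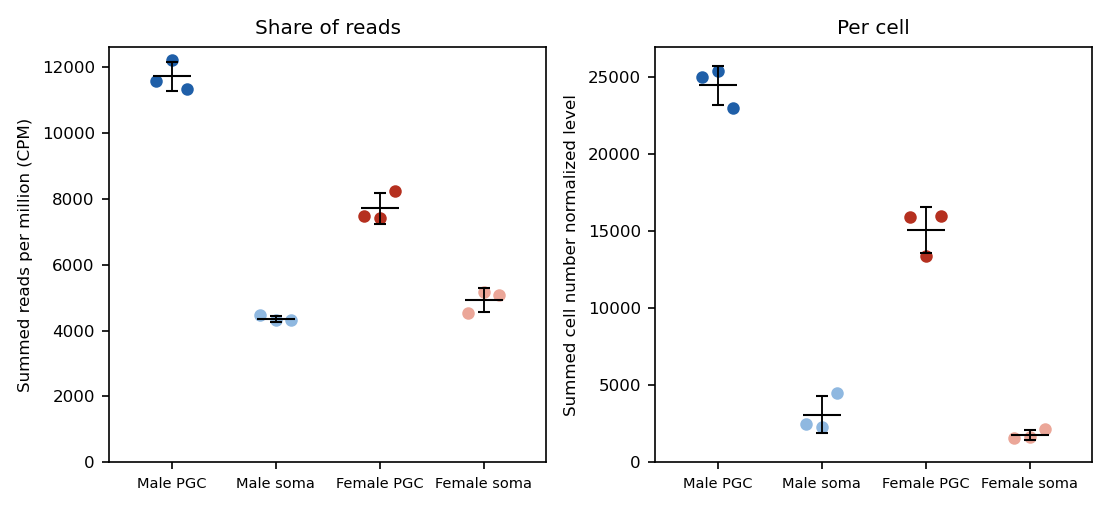
Summed level of the 51 ribosome biogenesis factors in each library (points), with the group mean (bar) and SD (whiskers, n = 3), as CPM on the left and on the cell number normalized scale on the right. On both scales the 3 male PGC libraries lie highest, female PGC libraries next, and all soma libraries below them.

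By read depth, 45 of the 51 members were higher in PGCs than in soma as the mean of both sexes and 3 were lower, where 41.4% of all genes were called higher and 45.3% lower. The members' median difference was 0.77 log2 units, beside -0.04 over all genes. In males 46 were higher and 2 lower (39.1% and 43.7% of all genes), with a median of 1.10 beside -0.06. In females 33 were higher and 8 lower (38.7% and 42.3% of all genes), with a median of 0.42 beside -0.05. The 8 lower in females became 5 without female PGC replicate 1 or without female soma replicate 3, and 3 under median centring. In CPM, the PGC libraries of each sex all exceeded the soma libraries of that sex for 33 members, and all fell below them for Nol4l and Rrp1 (28.2% and 35.1% of all genes). Centring each library on its median raised the all-gene median difference by 0.22 and left 48 members higher and 2 lower.

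Measured per cell, the difference between germ cells and soma was larger. The summed cell number normalized level was 25010.4, 25349.8 and 23007 in male PGCs and 2464, 2328 and 4482 in male soma, against 15925, 13366 and 15961 in female PGCs and 1581, 1649.6 and 2173 in female soma. No library of one cell type overlapped the other, and male soma replicate 3 stood well above its 2 replicates. Male PGCs held 7.91 times the level of male soma and female PGCs 8.37 times that of female soma. Of the 51 members, 50 were higher per cell in PGCs and 0 lower (74.3% and 16.5% of all genes), with a median of 2.98 log2 units beside 1.89 over all genes. The member without a call was Nol4l, at 0.25 ± 0.22, which turned to -1.45 when libraries were centred on their medians. Of the called members, Imp3 and Rrp1 also turned below 0 under that centring, to -0.046 and -0.61. In males 50 were higher and 1 lower (64% and 19.8% of all genes), and in females 51 were higher and 0 lower (77.2% and 11.5%).

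**Figure D2:**
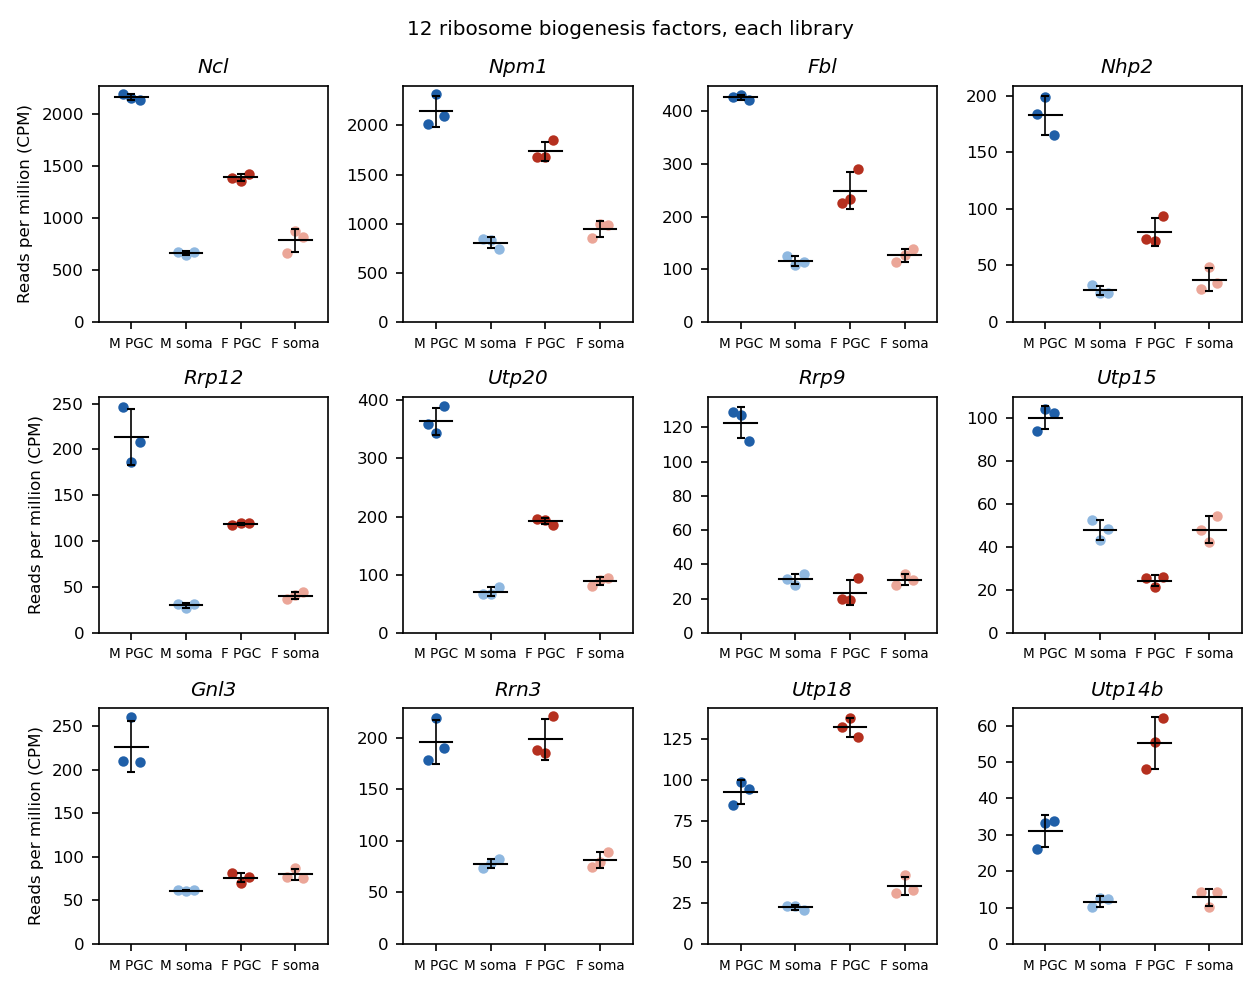
Level of 12 members in each library (points, CPM on a linear axis from 0), with the group mean (bar) and SD (whiskers, n = 3), where M is male and F female. Ncl, Npm1, Fbl, Nhp2, Rrp12 and Utp20 fall in steps from male PGCs to female PGCs to soma, Rrp9, Utp15 and Gnl3 stand high in male PGCs alone, and Utp18 and Utp14b stand highest in female PGCs.

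Both RNA polymerase I factors were higher in PGCs, and they differed in their sex pattern. Rrn3, which brings the polymerase to the ribosomal DNA promoter (chromosome 16, 13780708 to 13814839 of GRCm38), stood at 178, 219 and 190.0 CPM in male PGCs and 73.2, 78.4 and 81.8 in male soma, against 188, 185 and 221 in female PGCs and 74.9, 79.5 and 89.4 in female soma. Its PGC values overlapped between the sexes, and so did its soma values. The difference between PGCs and soma was 1.13 ± 0.08 log2 units in males and 1.01 ± 0.08 in females by read depth, and the female-minus-male difference in PGCs was -0.10 ± 0.08 (limma adjusted p = 0.283). Ubtf, the factor that coats active ribosomal DNA (chromosome 11, 102304560 to 102319742), stood at 519.9, 495 and 494 CPM in male PGCs and 252, 246 and 253 in male soma, against 299.5, 269.7 and 388 in female PGCs and 244, 274 and 271 in female soma. All male PGC libraries lay above all female PGC libraries, and female PGC replicate 2 fell within the female soma range. Ubtf was higher in PGCs by 0.89 ± 0.08 in males and by 0.21 ± 0.08 in females, and lower in female than in male PGCs by a log2 difference of -0.65 ± 0.08 (limma adjusted p = 9.41e-06).

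Among the 22 members of the small subunit processome, 18 were higher in PGCs by read depth, 1 lower and 3 not called. Over all genes 41.4% were higher and 45.3% lower. The members' differences ran from -0.22 for Imp3 to 1.74 for Rrp12. In CPM, 13 of the 22 lay wholly above female soma in female PGCs and 3 wholly below (5024 and 5487 of 12845 genes). Rrp12, a HEAT-repeat protein that helps export pre-ribosomes from the nucleus, stood at 246, 186 and 208 CPM in male PGCs and 31.6, 27.3 and 31.5 in male soma, against 118, 119 and 120.0 in female PGCs and 36.7, 41.3 and 44.2 in female soma. Utp20, a large scaffold protein of the processome, stood at 359, 343 and 389 CPM in male PGCs and 66.6, 66.3 and 79.7 in male soma, against 197, 194 and 186 in female PGCs and 81.2, 90.8 and 95.1 in female soma. For both genes the male PGC, female PGC and soma libraries formed 3 separate levels, 7.09 and 5.13 times the male soma mean in male PGCs and 2.93 and 2.16 times the female soma mean in female PGCs. Nol6, the UtpC subunit known as Utp22 in yeast, gave 304, 335 and 323 CPM in male PGCs and 104, 101 and 103 in male soma, against 112, 107 and 134 in female PGCs and 85.9, 87.0 and 102 in female soma. It was 3.12 times higher in male PGCs than in male soma but only 1.29 times higher in females.

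Several processome genes were high in male PGCs alone. Rrp9, a protein specific to the U3 snoRNP (chromosome 9, 106475963 to 106485424), stood at 129, 127 and 112 CPM in male PGCs and 31.7, 28.2 and 34.2 in male soma, against 19.7, 19.1 and 31.9 in female PGCs and 28.0, 34.2 and 31.2 in female soma. Its male PGC libraries were 5.21 times the female PGC mean, and the female PGC range overlapped both soma ranges. Utp15, a subunit of the UtpA complex that also serves transcription of ribosomal DNA (chromosome 13, 98246845 to 98263041), stood at 94.0, 104 and 102 CPM in male PGCs and 52.2, 43.0 and 48.1 in male soma, against 25.3, 21.2 and 26.1 in female PGCs and 47.6, 42.0 and 54.4 in female soma. Here female PGCs lay below every soma library, and female soma was 1.98 times the female PGC mean. Utp6, of the UtpB complex, gave 137, 148 and 127 CPM in male PGCs and 84.3, 82.8 and 80.4 in male soma, against 53.3, 43.1 and 66.2 in female PGCs and 74.7, 80.4 and 98.2 in female soma, again with every female PGC library below every soma library. By read depth the PGC-soma difference was 1.61 ± 0.12 in males and -0.32 ± 0.12 in females for Rrp9, 0.91 ± 0.09 and -0.72 ± 0.09 for Utp15, and 0.66 ± 0.11 and -0.50 ± 0.11 for Utp6. The difference between the sexes was called for each, at -1.92 ± 0.18 (limma adjusted p = 1.19e-06), -1.63 ± 0.13 (adjusted p = 3.88e-07) and -1.16 ± 0.15 (adjusted p = 2.61e-05).

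By read depth, 2 processome genes, Utp18 and Utp14b, were higher in female than in male PGCs. Utp18, the UtpB subunit that recruits the exosome, stood at 84.7, 98.8 and 94.4 CPM in male PGCs and 23.0, 23.4 and 20.5 in male soma, against 132, 138 and 126 in female PGCs and 31.2, 41.9 and 32.8 in female soma. Every female PGC library exceeded every male PGC library, and in soma the female libraries also lay above the male ones. Its female-minus-male difference was 0.29 ± 0.09 in PGCs and 0.45 ± 0.09 in soma, and the PGC-soma difference itself was 1.64 ± 0.09 in males and 1.47 ± 0.09 in females (difference -0.16 ± 0.13, limma adjusted p = 0.282).

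Utp14a and Utp14b encode versions of the same processome protein: Utp14a lies on the X chromosome (48256862 to 48282453) and Utp14b is a retroposed copy on chromosome 1 (78658038 to 78671512) that spermatogenesis is known to need. Utp14a stood at 56.9, 58.6 and 59.3 CPM in male PGCs and 24.6, 30.9 and 32.6 in male soma, against 33.1, 27.6 and 35.1 in female PGCs and 35.0, 34.7 and 33.8 in female soma. Utp14b stood at 26.1, 33.3 and 33.8 CPM in male PGCs and 10.1, 12.5 and 12.4 in male soma, against 48.1, 55.5 and 62.1 in female PGCs and 14.2, 10.1 and 14.2 in female soma. The X-linked gene was highest in male PGCs, with female PGCs overlapping soma, while the autosomal copy was higher in both PGC groups and highest in female PGCs. Utp14b was higher in PGCs by 1.06 ± 0.12 in males and 1.49 ± 0.12 in females, and higher in female than in male PGCs by 0.51 ± 0.12 (limma adjusted p = 0.00245). The sex difference of its PGC-soma difference was 0.44 ± 0.17 (adjusted p = 0.0461), a call that ended under median centring (0.39) and, at 0.32 to 0.43, without male PGC replicate 1, male soma replicate 2 or 3, female PGC replicate 2 or 3, or female soma replicate 2. Per kilobase of exon, Utp14b reached 4.04 CPM against 14.1 for Utp14a in male PGCs, 7.19 against 7.73 in female PGCs, and 1.52 and 1.68 against 7.11 and 8.35 in male and female soma. Utp14b lies within Acsl3, an acyl-CoA synthetase gene, on the same strand, and shares 3.18% of its exon bases with it. Acsl3 stood at 215, 229.9 and 224 CPM in male PGCs and 98.4, 82.4 and 86.8 in male soma, against 214, 201 and 195 in female PGCs and 62.6, 66.3 and 74.8 in female soma, also higher in PGCs, and reads of the 2 Utp14 copies may have been split between them, so both values are uncertain and the part of Acsl3 and of shared reads was not tested.

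Imp3 and Utp11l were not higher in PGCs of either sex by read depth. Imp3, which pairs U3 snoRNA with the precursor, stood at 47.5, 39.4 and 35.2 CPM in male PGCs and 43.8, 39.9 and 45.9 in male soma, against 20.1, 16.7 and 26.2 in female PGCs and 33.3, 34.2 and 29.4 in female soma. Male PGCs overlapped male soma, and female PGCs lay below female soma. Its mean difference over both sexes was -0.22 ± 0.08 by read depth (limma adjusted p = 0.0224), a call that ended without male PGC replicate 3 or without female PGC replicate 2, at -0.18 and -0.17, and a value that became 0.0079 under median centring. Utp11l, another processome subunit, gave 32.9, 37.1 and 27.9 CPM in male PGCs and 30.3, 37.6 and 36.1 in male soma, against 37.0, 34.9 and 43.0 in female PGCs and 33.9, 28.2 and 37.8 in female soma, overlapping in all 4 groups, with a difference of 0.08 ± 0.08 (adjusted p = 0.317). After median centring it was 0.31.

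All 8 snoRNP members were higher in PGCs by read depth as the mean of both sexes, where 41.4% of all genes were higher. In CPM, 6 of the 8 lay wholly above female soma in female PGCs and 0 wholly below (5024 and 5487 of 12845 genes). Nop56 and Nop10 overlapped female soma. Fibrillarin (Fbl), the methyltransferase of box C/D particles, stood at 427, 431 and 420.2 CPM in male PGCs and 125, 107 and 114 in male soma, against 226, 233 and 289 in female PGCs and 114, 127 and 138 in female soma. All male PGC libraries lay above all female PGC libraries, and these above soma, at 3.69 times male soma in males and 1.97 times female soma in females. Nop56 and Nop58 are the paired scaffold proteins of the same particle. Nop56 was measured at 305, 367 and 305 CPM in male PGCs and 150.1, 139.6 and 141 in male soma, against 137, 144 and 185 in female PGCs and 168, 192 and 168 in female soma. Nop58 stood at 270.2, 336 and 259.5 CPM in male PGCs and 119.5, 126 and 119 in male soma, against 194, 185 and 233 in female PGCs and 119, 149 and 143 in female soma. Both were higher in male PGCs than in male soma, at 1.03 ± 0.09 and 1.08 ± 0.09, but in females Nop58 was higher at 0.45 ± 0.09 (limma adjusted p = 0.000447) and Nop56 had a difference of -0.15 ± 0.09 (adjusted p = 0.133), its female PGC and soma libraries overlapping.

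Box H/ACA particles gave a similar contrast within one complex. Nhp2, an RNA-binding subunit, stood at 184, 199 and 165 CPM in male PGCs and 32.4, 25.5 and 25.6 in male soma, against 73.5, 71.6 and 94.0 in female PGCs and 29.1, 48.5 and 34.7 in female soma. Its male PGC mean was 6.55 times that of male soma, the third largest ratio among members after Rrp12 (7.09) and Nol8 (6.78). Dyskerin (Dkc1), the pseudouridine synthase, is X-linked (chromosome X, 75095854 to 75109777) and stood at 166, 196 and 169 CPM in male PGCs and 88.4, 74.5 and 71.7 in male soma, against 187, 191 and 206 in female PGCs and 81.7, 102 and 92.7 in female soma. Its PGC libraries overlapped between the sexes, and the female-minus-male difference in PGCs was -0.00 ± 0.08 (limma adjusted p = 0.968), whereas Nhp2 was lower in female PGCs by -1.07 ± 0.13, Gar1 by -0.68 ± 0.11 and Nop10 by -0.98 ± 0.11. Nolc1, a chaperone of both particle types, was lower in female PGCs by -0.99 ± 0.10.

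In large subunit assembly 14 of 15 members were higher in PGCs by read depth and 1, Rrp1, was lower (41.4% and 45.3% of all genes). In CPM, 10 of the 15 lay wholly above female soma in female PGCs and 4 wholly below (5024 and 5487 of 12845 genes). The 4 were Bop1, Nip7, Nop2 and Rrp1. Pes1, Bop1 and Wdr12 form the PeBoW complex. Pes1 was measured at 280.0, 256 and 246 CPM in male PGCs and 84.9, 81.9 and 85.4 in male soma, against 182, 178 and 179 in female PGCs and 77.2, 81.8 and 94.3 in female soma. Bop1, given because it belongs to the same complex, stood at 144, 152 and 119.9 CPM in male PGCs and 54.3, 43.9 and 44.8 in male soma, against 38.8, 39.7 and 45.2 in female PGCs and 54.8, 46.3 and 62.7 in female soma. Pes1 was higher in PGCs of both sexes, at 1.38 ± 0.07 in males and 0.86 ± 0.07 in females, and Wdr12 likewise at 1.51 ± 0.10 and 0.50 ± 0.10. Bop1 was higher in male PGCs by 1.29 ± 0.11, while its female PGC libraries lay below every female soma library, with a difference of -0.30 ± 0.11 (limma adjusted p = 0.0183).

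Gnl3 (nucleostemin, a nucleolar GTPase of proliferating cells), Nop2 (an rRNA methyltransferase) and Nol9 (a polynucleotide kinase) were also high in male PGCs. Gnl3 was measured at 209.9, 261 and 209.6 CPM in male PGCs and 61.9, 60.3 and 61.9 in male soma, against 81.7, 70.3 and 77.0 in female PGCs and 76.8, 87.1 and 76.2 in female soma. Nop2 stood at 129.7, 142 and 133 CPM in male PGCs and 61.1, 62.3 and 58.0 in male soma, against 52.0, 53.3 and 53.0 in female PGCs and 64.0, 61.8 and 82.6 in female soma. Nol9 gave 236, 259.9 and 249 CPM in male PGCs and 61.6, 59.9 and 64.4 in male soma, against 98.4, 83.2 and 111 in female PGCs and 65.0, 73.3 and 77.1 in female soma. In Gnl3 the female PGC libraries overlapped female soma, in Nop2 they lay below every soma library, and in Nol9 they lay between soma and male PGCs. The sex difference of the PGC-soma difference was -1.63 ± 0.11 for Gnl3 (limma adjusted p = 9.07e-08), -1.28 ± 0.12 for Nop2 and -1.34 ± 0.11 for Nol9.

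Noc2l and Rrp15 were lower in female than in male PGCs but remained above soma. Noc2l, a Noc complex protein, stood at 407, 406 and 347 CPM in male PGCs and 111, 106 and 118 in male soma, against 174, 191 and 274 in female PGCs and 153, 169 and 158 in female soma. Female PGC replicate 3 was the highest of its group for Noc2l, as it was for Ubtf, Nop56 and Nop58. Rrp15, a large subunit factor, stood at 129, 129 and 116 CPM in male PGCs and 32.8, 23.4 and 22.6 in male soma, against 59.5, 63.7 and 72.5 in female PGCs and 33.5, 31.6 and 31.4 in female soma, 4.76 times male soma in male PGCs and 2.03 times female soma in female PGCs.

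Rrp1 and Rrp1b are paralogs, and they went in opposite directions. Rrp1 (chromosome 10, 78400384 to 78413043) stood at 94.9, 98.5 and 97.5 CPM in male PGCs and 178, 189 and 194 in male soma, against 103, 98.1 and 89.97 in female PGCs and 181, 194 and 177 in female soma. Every soma library exceeded every PGC library, by a mean factor of 1.93 in males and 1.89 in females. Rrp1b (chromosome 17, 32036100 to 32062865) stood at 142, 165 and 148 CPM in male PGCs and 52.2, 46.0 and 47.1 in male soma, against 147, 142 and 142 in female PGCs and 71.1, 56.5 and 64.6 in female soma, with every PGC library above every soma library. By read depth the PGC-soma difference was -0.69 ± 0.04 for Rrp1 and 1.14 ± 0.06 for Rrp1b. Neither differed by a call between male and female PGCs by read depth (-0.11 ± 0.06, limma adjusted p = 0.104, and -0.18 ± 0.08, adjusted p = 0.0586), although after median centring both were called lower in female PGCs, at -0.15 and -0.21. Per cell Rrp1 was higher in PGCs, by 1.09 ± 0.20, less than the all-gene median of 1.89.

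Ncl and Npm1, abundant nucleolar RNA-binding and chaperone proteins, set the scale of the group. Ncl (nucleolin, chromosome 1, 86344719 to 86359400) stood at 2189, 2153 and 2130.1 CPM in male PGCs and 675, 639.7 and 671 in male soma, against 1387, 1359 and 1419 in female PGCs and 661, 876 and 819 in female soma. Npm1 (nucleophosmin, chromosome 11, 33152287 to 33163206) stood at 2011, 2323 and 2099 CPM in male PGCs and 843, 839 and 741 in male soma, against 1677, 1679 and 1849 in female PGCs and 856, 999 and 989 in female soma. In both genes every male PGC library exceeded every female PGC library, and the PGC libraries exceeded soma of their sex. By read depth the female-minus-male difference of Npm1 in PGCs was -0.37 ± 0.07 (limma adjusted p = 0.000377), and it turned to 0.085 (adjusted p = 0.117) under quantile normalization. Npm1 has many processed copies in the genome, and the treatment of reads shared with them was not given in the sources used here. Nol8, a nucleolar RNA-binding protein, stood at 163, 199.8 and 186 CPM in male PGCs and 28.5, 27.3 and 25.1 in male soma, against 163, 161 and 167 in female PGCs and 27.0, 37.1 and 30.4 in female soma. It was 6.78 times higher in male PGCs and 5.19 times higher in female PGCs than in soma, and the PGC groups overlapped. Its female-minus-male difference in PGCs was -0.24 ± 0.09 (limma adjusted p = 0.026), a call that ended without male PGC replicate 2 or 3 or without female PGC replicate 1 or 2 (adjusted p from 0.0607 to 0.103).

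Nol4l, which entered by its name and for which no role in ribosome assembly is claimed here, had a pattern of its own (chromosome 2, 153407462 to 153529971). It stood at 7.84, 6.77 and 8.70 CPM in male PGCs and 78.9, 75.5 and 79.1 in male soma, against 74.2, 79.6 and 75.6 in female PGCs and 94.5, 83.6 and 90.4 in female soma. The male PGC libraries lay far below the other 9, female PGCs being 9.85 times higher on average, and female PGCs were just below female soma. The difference was -2.32 ± 0.08 in males and -0.18 ± 0.08 in females by read depth (limma adjusted p = 7.45e-12 and 0.051). Without Nol4l the summed CPM of the other members was 2.73 times higher in male PGCs than in male soma and 1.58 times higher in females.

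**Figure D3:**
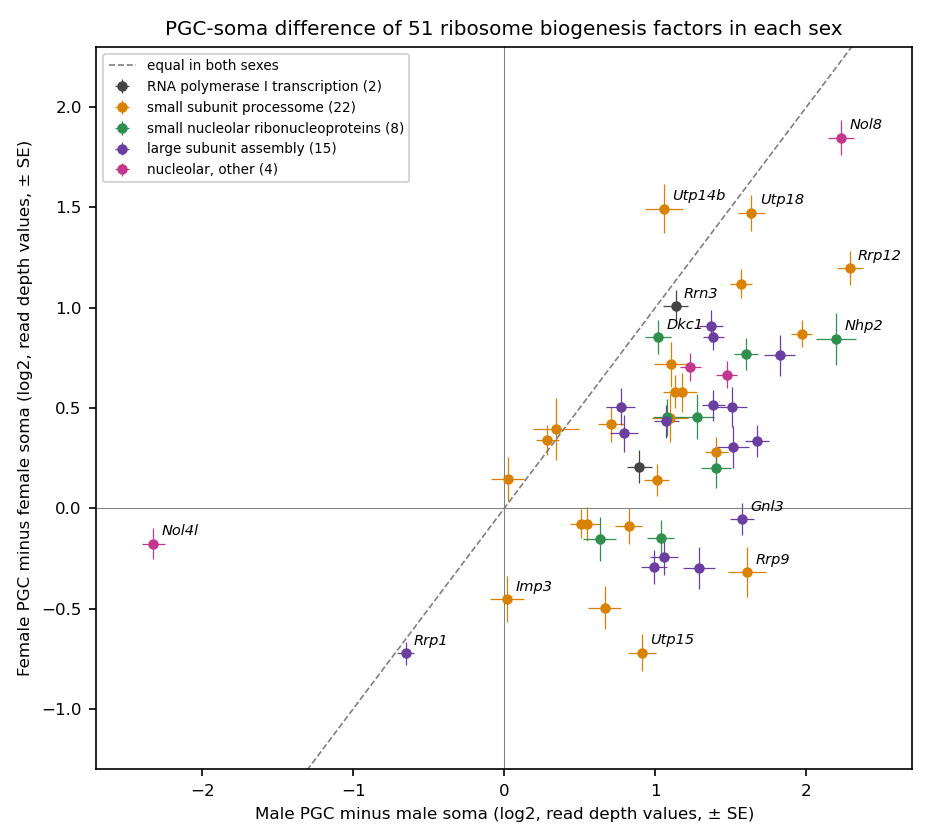
PGC-soma difference of each of the 51 members in males (x axis) and females (y axis), in log2 units of the read depth table with SE bars, coloured by role. Most points lie below the dashed line of equal difference, Rrn3, Dkc1 and Utp18 lie on or near it, Utp14b lies above it, and Nol4l lies far to the left.

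The difference between PGCs and soma was smaller in females for most members. By read depth, the PGC-soma difference was lower in females than in males for 39 members and higher for 2 (28.9% and 27.9% of all genes), with a median of -0.65 log2 units beside -0.01 over all genes. The 2 higher were Nol4l and Utp14b. By role, the lower members were 15 of 22 processome genes, 7 of 8 snoRNP genes, 13 of 15 large subunit genes, 3 of 4 other nucleolar genes and 1 of 2 polymerase I factors. Compared directly, female PGCs were lower than male PGCs for 41 members and higher for 3 (32.5% and 32.8% of all genes), with a median of -0.65 beside 0.01. The 3 higher were Nol4l, Utp14b and Utp18, and the 7 without a call were Utp11l, Dkc1, Nol11, Rrn3, Rrp1, Rrp1b and Nop9. In CPM, every female PGC library lay below every male PGC library for 39 members and above for 3 (29% and 40.6% of all genes). These comparisons share the female and male PGC libraries, so they are not separate evidence.

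Proliferation markers were higher in PGCs than in soma as a sum, and their sums overlapped between male and female PGCs. Their 7 genes summed to 2698 to 3720 CPM in male PGCs and 2583 to 2794 in female PGCs, against 1560.1 to 1567 in male soma and 1323 to 1767 in female soma. In the median library the sum was 2733 CPM in male PGCs and 2742 in female PGCs. Of the 7 genes, 5 were higher and 1 lower in PGCs than in soma by read depth (41.4% and 45.3% of all genes). In female against male PGCs 1 was higher and 3 were lower (32.8% and 32.5% of all genes). The germ cell marker sum was 4774 to 4979 CPM in male PGCs and 3520 to 3864 in female PGCs. Of its 8 markers, 3 were lower and 1 higher in females (32.5% and 32.8% of all genes). All 5 Sertoli markers were lower in female than in male PGCs (32.5% of all genes). The part of these differences in the values of the ribosome factors was not tested.

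**Figure D4:**
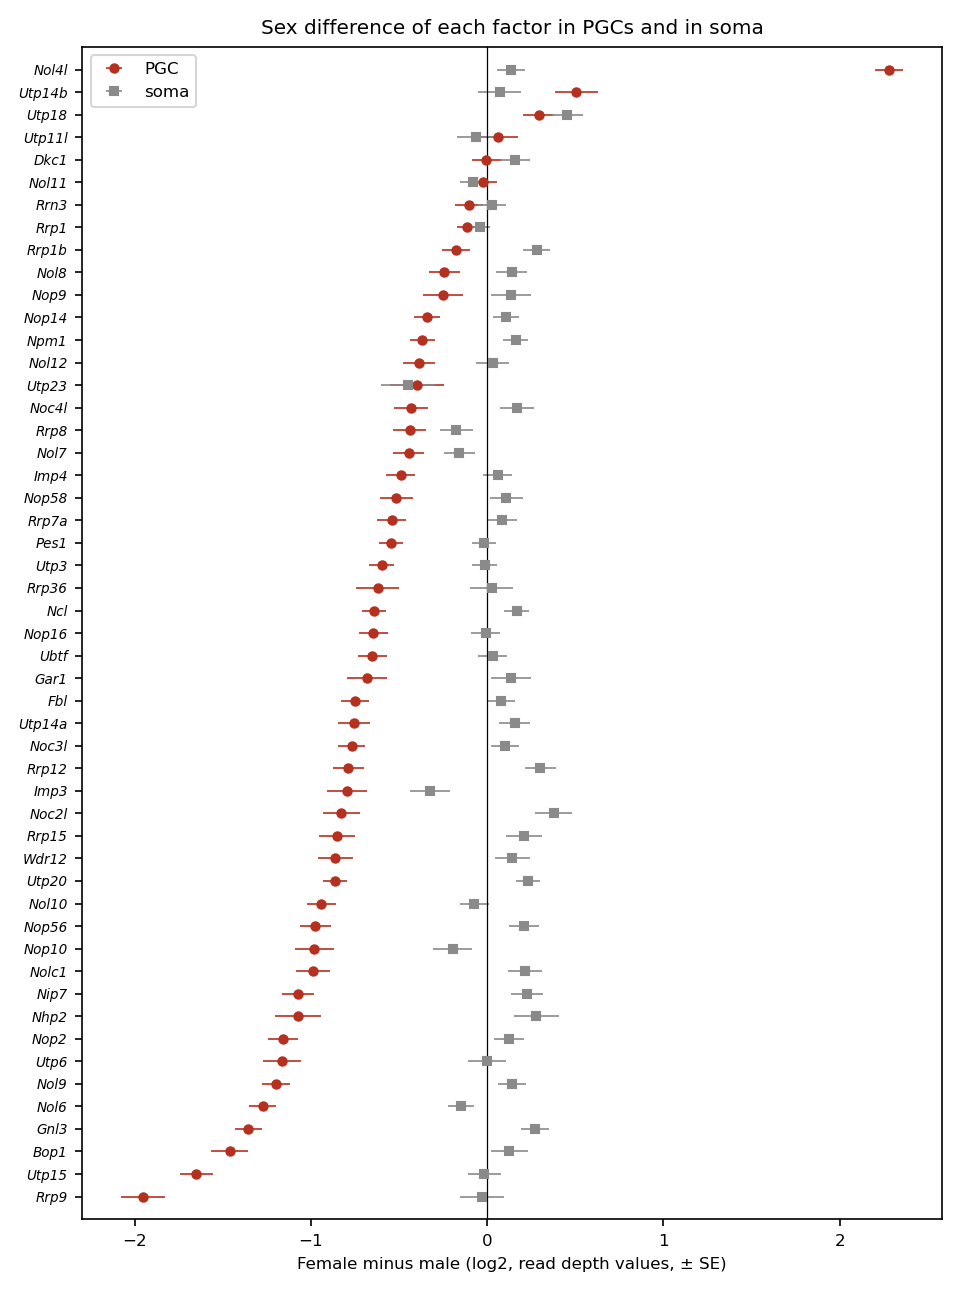
Female-minus-male difference of each member in PGCs (circles) and in soma (squares), in log2 units of the read depth table with SE bars, ordered by the PGC value. Circles run from -1.95 for Rrp9 to 2.28 for Nol4l with most below 0, while squares lie between -0.45 and 0.45.

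Members were called between female and male soma by read depth no more often than all genes were. Of the 51 members 6 were higher and 1 lower in female soma (13.3% and 11% of all genes), with a median of 0.11 log2 units beside 0.01. In CPM, every female soma library lay above every male soma library for 13 members and below for 3 (2911 and 2329 of 12845 genes). The higher members were Gnl3 at 0.27 ± 0.08, Noc2l at 0.38 ± 0.10, Rrp1b at 0.28 ± 0.08, Utp20 at 0.23 ± 0.07, Utp18 at 0.45 ± 0.09 and Rrp12 at 0.30 ± 0.09, and the lower was Utp23, a processome protein named after its value was seen, at -0.45 ± 0.15. The Utp23 call ended under median centring and without any 1 of the 3 male soma libraries, female soma replicate 1, or male PGC replicate 2 or 3. The count of 6 fell to 1 without male soma replicate 2 and to 3 without female soma replicate 2. Female soma libraries also carried 17544 to 29477 CPM of erythroid transcripts against 3354 to 8553 in male soma. Germ cell markers summed to 77.8 to 235 CPM in female soma against 74.8 to 92.3 in male soma. Of these sums Kit alone gave 59.0 to 76.6 CPM in female soma and 57.6 to 79.3 in male soma. The part of erythroid or germ cell transcripts in these values was not tested.

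Per cell, the sex comparison depended on the scaling. Female PGCs were lower than male PGCs for 29 members and higher for 1, Nol4l (17.7% and 24.3% of all genes), with a median of -0.79 beside 0.08, and 44 were lower after median centring. Female soma was lower than male soma for 40 members and higher for 0 (63.6% and 2.86% of all genes), with a median of -0.73 beside -0.86, and median centring, which moved the all-gene median by 0.88, left 0 lower and 6 higher. The 40 fell to 24 without male soma replicate 3 and to 16 without female soma replicate 1 or without replicate 2. For the PGC-soma difference, 4 members were higher and 4 lower in females than in males (42.8% and 5.16% of all genes), with a median of 0.06 beside 0.91, and median centring, which lowered the all-gene median by 0.99, gave 1 higher and 41 lower. Without male soma replicate 3 the 4 lower became 18. The 4 higher were Nol4l, Utp14b, Utp11l and Nol11, at 3.91, 1.502, 1.10 and 1.00 log2 units, and the 4 lower were Rrp9, Utp15, Gnl3 and Bop1, at -1.60, -1.25, -1.14 and -1.13, where Nol11 and Bop1 were named after their values were seen.

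Other genes of ribosome assembly, outside the naming rule of the members, were also mostly higher in PGCs. Of 122 measured, 98 were higher and 12 lower in PGCs by read depth (41.4% and 45.3% of all genes), with a median of 0.85 log2 units beside -0.04. Per cell 122 were higher and 0 lower (74.3% and 16.5% of all genes), with a median of 3.09 beside 1.89. Spata5, an AAA ATPase that releases factors from the maturing large subunit, was higher by 2.90 ± 0.10, and Mdn1, the giant ATPase of large subunit remodelling, by 2.49 ± 0.08. Tex10, a partner of Mdn1 in this pathway, was higher by 2.15 ± 0.06. In small subunit assembly the helicase Ddx10 was higher by 2.59 ± 0.10 and the processome subunits Heatr1 and Cirh1a by 2.17 ± 0.07 and 1.88 ± 0.06. The polymerase I genes Polr1b, Taf1b and Polr1c were higher by 1.44 ± 0.06, 1.08 ± 0.06 and 0.99 ± 0.06. Of the exosome, Skiv2l2, Exosc5 and Mphosph6 were higher by 1.49 ± 0.05, 1.28 ± 0.09 and 1.15 ± 0.07, and of snoRNP assembly, Shq1, Nhp2l1 and Rpap3 by 1.48 ± 0.08, 1.07 ± 0.07 and 1.02 ± 0.06.

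In these other genes too, female PGCs were mostly lower than male PGCs, 92 of 122 being lower and 8 higher by read depth (32.5% and 32.8% of all genes), with a median of -0.60 beside 0.01. Polr1c, a subunit of polymerases I and III, had the log2 difference -1.26 ± 0.08, Mphosph6 -1.20 ± 0.10 and Polr1b -1.10 ± 0.08. Spata5, Nhp2l1 and Ddx10 were higher in female PGCs, at 0.68 ± 0.14, 0.61 ± 0.10 and 0.35 ± 0.14, and Taf1b had no call at 0.03 ± 0.08 (limma adjusted p = 0.764).

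Scaled by exon length, the members spanned a wide range of levels within each group. Npm1 was the highest in all 4 groups, at 804.5 CPM per kilobase of exon in male PGCs and 303 in male soma, against 651 in female PGCs and 356 in female soma. The lowest was Nol4l in male PGCs at 0.855, Utp14b in male and female soma at 1.52 and 1.68, and Utp15 in female PGCs at 4.14. The median member stood at 35.7 CPM per kilobase in male PGCs, 19.7 in female PGCs, 14.5 in female soma and 11.9 in male soma. Exon lengths were the union over all annotated transcripts, so a gene with long rare exons is understated. Of the 51 genes 6 (Noc2l, Nol7, Nop9, Rrp7a, Utp14a and Utp23) overlap exons of an opposite-strand gene by at least 10% of their own exon bases, and whether the counting used strand was not given in the sources used here.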

How the data were processed

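RNA was measured in 12 libraries, 3 for each combination of sex and cell type, and the sample titles gave the groups and replicate numbers. Per the labels' protocols, ERCC spike-in RNA was added by the number of sorted cells, and a directional kit for messenger RNA was used. Per the submitters' processing notes, the build was mm10. The tools they name are Trim Galore 0.4.0, TopHat2 2.0.9 and HTSeq 0.6.1p1 for the reads. Per the same submitters' processing notes, the authors also used limma 3.28.14, edgeR 3.14.0, DESeq2 1.12.3 and R 3.3.0. No role, order, strand setting, annotation or gene filter was given in the sources used here.

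The authors deposited 2 tables of log2 values for 12845 genes, by cell number and by read depth. The first table's abbreviated name was taken to mean normalization to cell number, and how the second was transformed was not given in the sources used here. All values of the first (100%) were log2 of whole reads plus 0.5 over a library size, within 0.001 reads, and CPM was computed from those reads. Libraries held 6454322 to 24791414 reads. Each gene reached 5.07 CPM or more in at least 3 libraries, so all 51 members were tested and none was filtered out here. The number of deposited value columns left unused was 0.

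All genes were fitted with limma 3.58.1 (R 4.3.3) on the deposited log2 values. The model held 4 group means with an intensity trend, and p-values were Benjamini-Hochberg adjusted over 12845 genes. Python 3.11.15, pandas 2.3.3, numpy 2.4.6 and matplotlib 3.10.9 did the rest. Symbols were looked up in GENCODE vM21, where 51 of 51 members matched, 1 by an older symbol. Replicates differed by more than sampling noise, with a chi-square of 5.43 to 30.4 for each degree of freedom. Same-numbered libraries did not deviate together (r from -0.361 to 0.0715 over 18 pairs, 0 above 0.1), so the numbers were not taken as pairs. Of 36 pairs with different numbers 5 were above 0.1. The highest, at 0.263, was male PGC replicate 2 with female PGC replicate 3. Whether such libraries shared a litter or a batch was not tested. The fit was tested on simulated data in which 67 genes changed by 1 log2 unit in each comparison. By read depth, 100% were recovered for PGCs against soma and 94.0% for female against male PGCs. Per cell the shares were 65.7% and 16.4%, and for changes of 2 they were 98.5% and 75.8%. The simulation drew noise separately for each gene and left most genes unchanged. In the data many more genes were called, so these shares need not hold there. A missing per-cell call does not show that a difference is absent. Of the 12445 unchanged genes 0.104% were called for PGCs against soma on either scale. Shifts shared by a whole library were not simulated, so this is not the rate of false calls in the data.

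Named with every library's value were, in each role, the 3 members highest in reads and the 3 with the largest change, those lower or without a call in PGCs, the clearest sex differences, and Utp14a and Utp14b. Of the other assembly genes, the 3 with the largest change in each list were named. The members and lists were chosen with earlier results of these data known. Alternatives were other variance settings, scalings, thresholds and filters, a replicate block, limma's voom on the reads, and leaving out each library. For these alternatives no share of all genes called is given. A changed count of members therefore does not show whether all genes changed with them.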

Additional observations from a re-analysis of the deposited data

Results flagged for a closer look

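Each result here was picked out because the PGC-soma difference of a named member differed between the sexes in a test of that difference itself (limma, female minus male, log2 units, adjusted p under 0.05).

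Some members were named for a small adjusted p in this test, so counts of those picked out are no separate support. By read depth the difference was called smaller in females for 39 of all 51 members and larger for 2 (28.9% and 27.9% of all genes). It was smaller in females for 23 of the 25 members picked out. In the small subunit processome it was -1.92 for Rrp9, -1.63 for Utp15, -1.16 for Utp6, -1.12 for Nol6, -1.10 for Utp20, -1.09 for Rrp12, -0.91 for Utp14a and -0.47 for Imp3. Among snoRNP proteins it was -1.35 for Nhp2, -1.18 for Nop56, -0.83 for Fbl and -0.62 for Nop58. In large subunit assembly it was -1.63 for Gnl3, -1.34 for Nol9, -1.28 for Nop2, -1.21 for Noc2l, -1.06 for Rrp15, -0.53 for Pes1 and -0.46 for Rrp1b. The polymerase I factor Ubtf had -0.69, and the nucleolar proteins Ncl, Npm1 and Nol8 had -0.81, -0.53 and -0.38. It was larger in females for Nol4l, at 2.15, and for Utp14b, at 0.44.

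Per cell, 6 named members were picked out. Over all 51 members the difference was called larger in females for 4 and smaller for 4 (42.8% and 5.16% of all genes). The difference was smaller in females for Rrp9 at -1.60, Utp15 at -1.25 and Gnl3 at -1.14. It was larger in females for Nol4l at 3.91, Utp14b at 1.502 and Utp11l at 1.10, where the median over all genes was 0.91.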

How the results depend on the processing

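By read depth, the counts of members higher in PGCs kept within 1.5 times of the reported count in all fits except the fold threshold: a log2 change of at least 1 left 15 of 45 members and 42 of 98 other genes for both sexes, 6 of 33 in females, 17 of 39 lower for the sex difference of the PGC-soma difference, and 10 of 41 lower in female PGCs. In soma, the 6 higher became 0 under that threshold, 11 with quantile normalization and 1 at an adjusted p of 0.01. Per cell, the 51 higher in females became 33 with quantile normalization. For the sex difference of the PGC-soma difference, the 4 higher became 2 without the intensity trend, 12 with array weights, 1 with median centring or quantile normalization and 2 at 0.01, while the 4 lower became 20, 41, 36 and 1 with array weights, centring, quantile normalization and 0.01. The 29 lower in female PGCs became 44 with centring and 18 with the fold threshold, and the 40 lower in female soma became 0, 2, 18 and 6 with centring, quantile normalization, 0.01 and the fold threshold.

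Leaving out each library in turn gave, for the sex difference per cell, 2 to 8 higher (8 without male soma replicate 2, and 2 without male PGC replicate 1 or 3, female PGC replicate 1 or 3, or female soma replicate 1 or 2) and 2 to 18 lower (18 without male soma replicate 3, and 2 without male PGC or female PGC replicate 2). It gave 20 to 39 lower per cell in female PGCs, 16 to 48 lower in female soma, and 1 to 8 higher in female soma by read depth.

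Directions turned for single genes. Per cell, PGCs against soma became, with centring and quantile normalization, -1.45 and -1.49 for Nol4l, -0.046 and -0.066 for Imp3 and -0.61 and -1.05 for Rrp1, and -0.0014 for Utp6 with quantile normalization. The per-cell sex difference became -0.93 and -0.77 for Ubtf, -0.85 and -0.72 for Nop58, -0.73 and -0.55 for Pes1, -0.66 and -0.53 for Rrp1b and -0.72 and -0.39 for Npm1, and with centring -0.56 for Nol8 and -0.74 for Imp3. By read depth, Imp3 became 0.0079 with centring and Npm1 in female against male PGCs 0.085 with quantile normalization. Centring and quantile normalization remove the global per-cell shift by construction, and the cause of the other changes was not tested.

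With the replicate block, 45 members were higher in PGCs by read depth, 46 in males and 33 in females, 40 had a smaller difference in females, 40 were lower in female PGCs and 6 higher in female soma. Per cell the block gave 50, 50 and 51 higher, 5 higher and 4 lower for the sex difference, 32 lower in female PGCs and 43 lower in female soma, and for the other genes 98 and 122 higher. Counts under the block and the other alternative settings are given without the share of all genes called. No library correlated best with its own number. Depth limits the low members most: the fewest reads of any member in a library were 55, for Utp23 in female soma replicate 3.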

Other observations

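A minority of the other ribosome assembly genes went against the rest, and these were named after their values were seen. By read depth, Riok3 and Rbm28 were the lowest of the 12 that were lower in PGCs than in soma, at -0.60 log2 units each, followed by Exosc4, a core exosome subunit, at -0.52, the small subunit kinase Riok1 at -0.51 and Znrd1, a polymerase I subunit, at -0.48. Tgs1, which caps snoRNAs, had -0.44, and Tcof1, the treacle protein that links polymerase I transcription to rRNA modification, had -0.25. Of the 8 that were higher in female than in male PGCs, Zfp622, a late cytoplasmic factor of the large subunit, was the highest at 0.77, and Ltv1, of the small subunit, was at 0.46.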
